A study of Arabidopsis thaliana with 222 samples.

Results

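Wild-type roots of *Arabidopsis thaliana* (accession Col-0) were grown with the single bacterial strain L359 in 6 libraries and without bacteria (NB) in 6 others, and these 12 of the 222 libraries of the series are described here. They were chosen by their genotype and treatment labels alone. The count table lists 32311 genes, of which 21635 had enough counts to be tested. The study asked how single members of the root microbiota alter root growth and branching, also in mutants of the auxin pathway that places lateral roots. Seedlings raised without microbes for a week were moved to plates that carried 1 strain or none (a monoassociation), and roots were harvested a further week later, those of several seedlings pooled into a sample. L359 is a *Flavobacterium*, of the phylum Bacteroidota, for which the study lists no operon for making auxin. NB plates received the magnesium chloride carrier and no cells. The strain was also given to *nph4-1*, a mutant of the auxin response factor ARF7, and to *lbd16-1*, a mutant of its target LBD16, each in 6 libraries with L359 and 6 with NB. In Col-0, 15 other strains were given singly, among them L180 and RMF8, the other Bacteroidota (both *Chryseobacterium*).

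A root meets a bacterium first at its epidermis, where files of cells grow root hairs, and receptors at the cell surface there read flagellin, chitin and other microbial molecules. Their signals pass through WRKY transcription factors and salicylic acid, while auxin and ethylene set the growth of hairs and lateral roots, and nutrient sensors adjust the transporters for nitrate, sulfate and iron. Plant cells that meet impaired mitochondria or reactive compounds switch on alternative oxidase and detoxifying enzymes. Genes of these processes are described with the genes that changed most. Their lists were grouped by function, but they were chosen with earlier results of these data known.

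The 12 libraries held 10255732 to 25605850 counts, of which the 10 most abundant genes held 4.68 to 6.84%. Values are CPM, counts relative to the scaled size of the library, compared on a log2 scale with their standard error (SE), and a gene is called changed where edgeR's adjusted p was under 0.05. Labels do not name the repeat or the plants of a library, so the spread behind these p-values is that between samples, which may be partly technical. That spread was estimated for each gene over all 222 libraries of 37 groups, not over these 12 alone. The NB group of Col-0 was more variable than the rest. Its median variance within the group was 1.859 times that of the median group, against 1.221 times for Col-0 with L359. The SE and adjusted p of the main fit may therefore be too small for contrasts with Col-0 NB. Markers of shoot photosynthesis, 20 nuclear genes such as RBCS1A and LHCB3, summed to 823 to 1198 CPM in NB. With L359 they summed to 673 to 979 CPM in 5 libraries and to 2608 CPM in replicate 4. NB replicate 4 held 48438 counts of AT2G01020, an rRNA gene, where the other Col-0 libraries held 74 to 2211. Markers of the root cap summed to 10.7 to 17.9 CPM in NB and 11.2 to 15.6 CPM with L359, and of 19 markers of root cap, xylem, phloem, stele and epidermis 2 were called, both of secondary xylem walls (CESA4, log2 0.30, and IRX3, 0.31). NB replicate 5 and L359 replicate 4 lay farthest from their own groups (SD of the log2 difference to the median of the others 0.42 for both, against 0.21 to 0.32). These 3 libraries are said below to stand apart, and the main counts are given with and without them. NB replicate 4 is among them for AT2G01020, while its SD of 0.25 was the lowest of NB. NB replicate 1 (SD 0.32) was kept, and some genes below were not called without it.

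**Figure D1:**
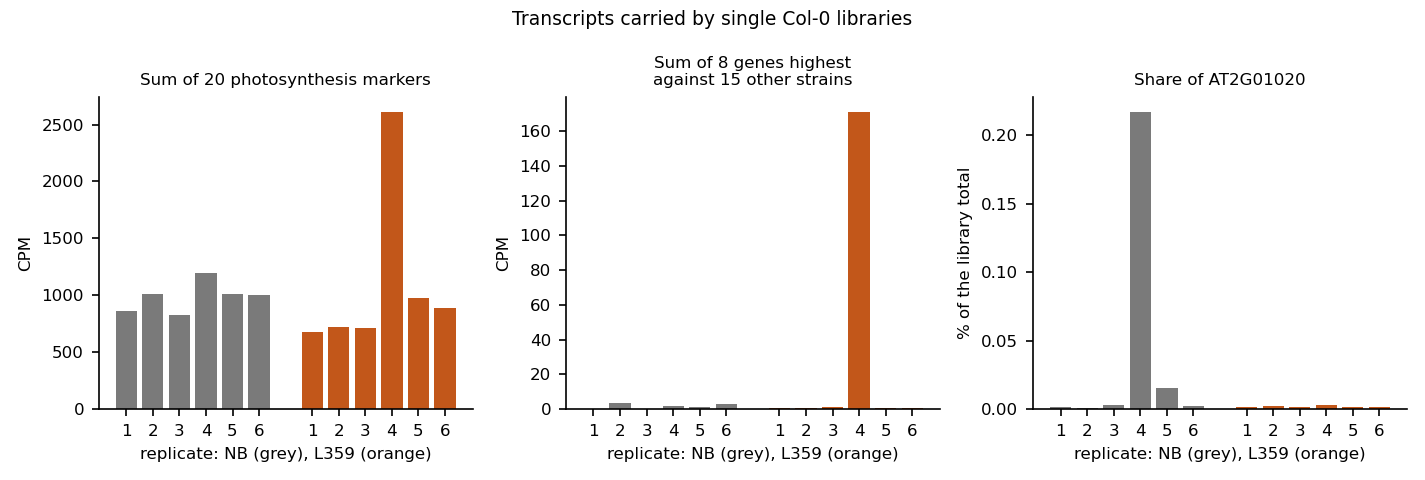
Each bar is 1 Col-0 library (NB grey, L359 orange, replicates 1 to 6), showing the summed CPM of 20 photosynthesis markers, the summed CPM of the 8 genes highest in L359 against the 15 other strains, and the percent of the library total taken by AT2G01020. L359 replicate 4 reached 2608 CPM in the first panel and 171 CPM in the second, and NB replicate 4 stands alone in the third at 0.217%.

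With L359, 1829 genes were higher than in NB (8.45% of those tested) and 1436 were lower (6.64%), while the median log2 fold change of all genes was −0.0045. Most of these changes were small. The median size of a called change was 0.39 on the log2 scale, and 355 genes rose and 119 fell by 1 or more. For 750 genes (3.47%) the 6 L359 and the 6 NB libraries did not overlap, and 723 of them were called, 485 higher and 238 lower. Without the 3 libraries that stand apart, 1070 genes were higher (4.91%) and 709 lower (3.25%), and 1625 genes were called in the same direction in both fits. In a fit of these 2 groups alone 1185 genes were called. Counts in the gene lists of Col-0 below are to be read beside the shares of all genes, 8.45% higher and 6.64% lower. Without the 3 libraries those shares were 4.91% and 3.25%.

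The genes that rose most, among those whose groups did not overlap, were of several kinds, among them kinases, a peroxidase and transporters. AT2G14440, a leucine-rich repeat kinase, was at 0 to 0.195 CPM in NB (median 0.0699) and at 0.316 to 2.32 CPM with L359 (median 1.46). Every L359 library lay above every NB library, although at few counts (log2 fold change 4.20 ± 0.57, adjusted p = 5.2e-09). AT3G03670, of the peroxidase superfamily, went from 0.225, 1.18 and 3.79 CPM (lowest, median and highest in NB) to 6.00, 20.3 and 27.2 CPM. It was 12.4-fold higher with L359 (log2 3.63 ± 0.52), with 1 L359 library far below the other 5. A second leucine-rich repeat kinase, AT5G37450, was raised evenly. It ran from 2.53 to 9.54 CPM in NB and from 19.3 to 29.3 CPM with L359, a 5.36-fold rise (log2 2.42 ± 0.27, adjusted p = 1.3e-12). The wall-associated kinase WAK5 (log2 2.09), the AIG1-family gene AT1G33890 (2.74), the LURP-one-like gene AT1G33840 (2.63), the cupredoxin AT3G60270 (2.72), the receptor-like AT1G63570 (2.18) and the ankyrin-repeat gene AT5G04730 (2.09) were also among the 15 highest. So were 2 transporter genes, UMAMIT35 of the amino acid exporter family (2.42) and ABCB5 of the family that holds auxin carriers (2.07). CYP710A4, of the P450 family that desaturates sterols, rose from 0.0973 to 0.769 CPM to 1.89 to 2.73 CPM (log2 2.54 ± 0.44). AT5G04120, annotated as a phosphoglycerate mutase, rose from 5.28 to 22.7 CPM to 32.7 to 67.5 CPM (log2 2.1 ± 0.44). AT4G35690 (2.29) and AT3G48510 (2.05), of unknown function, complete the 15.

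The genes that fell most were chosen in the same way. AT5G16980, a zinc-binding dehydrogenase of the alkenal reductase family, was at 7.97, 11.0 and 14.4 CPM in NB and at 1.70, 2.18 and 2.68 CPM with L359. It fell by 2.38 ± 0.23 on the log2 scale (adjusted p = 5.5e-16), the groups being far apart and the L359 libraries close together. The cytochrome P450 gene CYP89A6 went from 20.9 to 37.1 CPM to 5.49 to 9.73 CPM, a fall by 1.92 ± 0.20. CP1, a cysteine proteinase, fell by 1.67 ± 0.20, from 29.5 to 44.7 CPM to 10.5 to 12.9 CPM. Both had L359 libraries that lay wholly below those of NB. Also among the 15 lowest were the aldo-keto reductase ChlAKR (−1.75), the alkenal reductase AER (−1.35), the glycosyltransferase UGT74E2 (−1.39), the sulfate transporter gene SULTR1;3 (−1.37), the early light-induced ELIP2 (−1.35) and AT2G21640, a marker of oxidative stress (−1.88). AT3G54530 (−2.68), AT1G64340 (−1.76), AT4G12735 (−1.68), the mitochondrial ATMG00640 (−1.67), the zinc finger gene AT2G18490 (−1.50) and AT1G55230 (−1.43) complete the 15, none of them above 4.16 CPM in any library. All 30 of these genes remained called without the 3 libraries that stand apart and with limma voom. They were chosen for large changes without overlap in these same libraries, so those fits are no independent check.

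**Figure D2:**
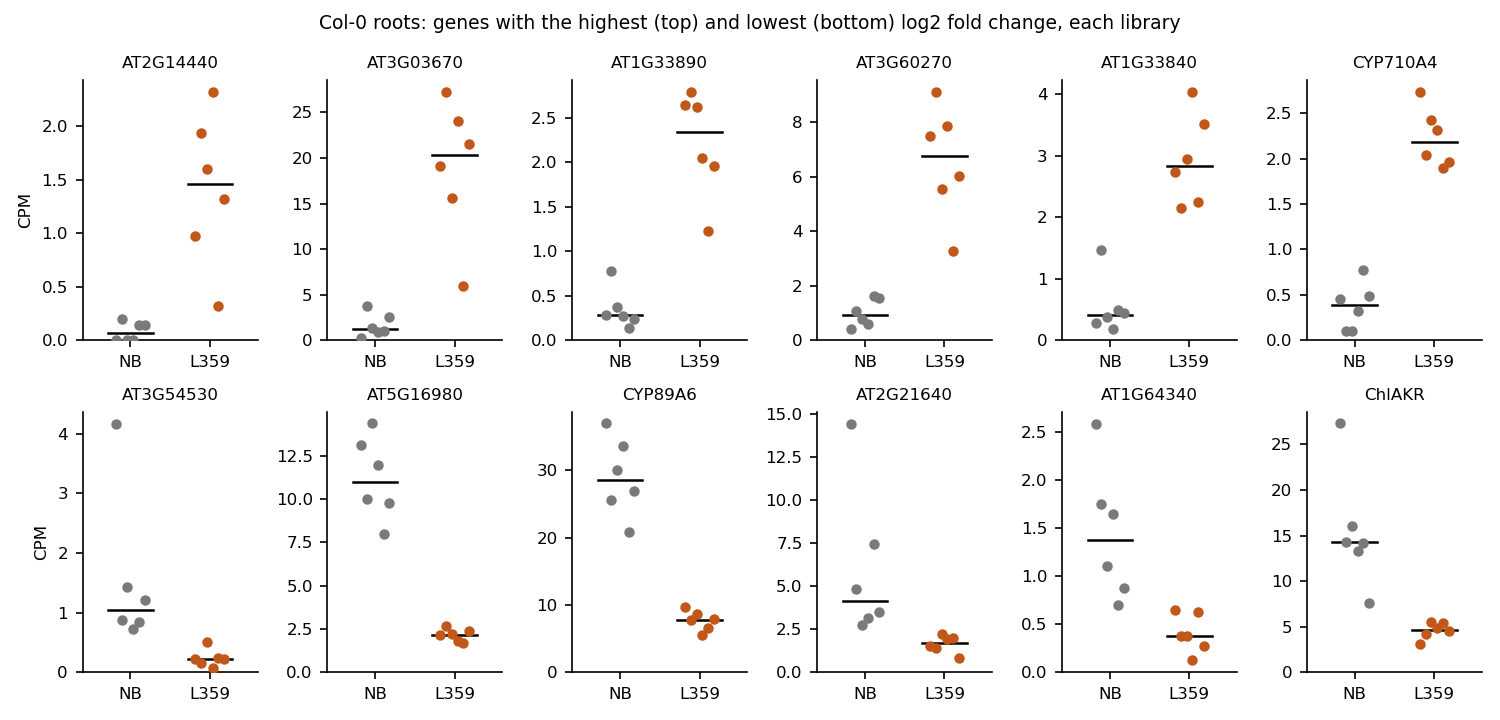
Each point is 1 Col-0 library in CPM, and the line is the median of 6, for the 6 genes with the highest (top) and the 6 with the lowest log2 fold change (bottom) among called genes whose groups did not overlap. AT3G03670 rose from at most 3.79 CPM in NB to 6.00 to 27.2 CPM with L359, and AT5G16980 fell from 7.97 to 14.4 CPM to 1.70 to 2.68 CPM.

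Genes of root hairs rose together with L359. Of 24 genes for hair initiation and growth 19 were higher and 1 was lower, beside 8.45% and 6.64% of all genes, and their median log2 fold change was 0.60. Hairs are started by the bHLH factor RHD6 and extended by its targets of the RSL family, which switch on genes for wall loosening and wall proteins. A sequence known as the root hair element was described in promoters of such genes, and 8 of the 19 that rose (42.1%) hold a match to it within 250 bases before to 50 bases after the annotated start, against 0.867% of 27443 promoters of this length. The element was defined on genes of this kind, so the match describes the list and is no test of it. The promoters of an expansin gene, of a proline-rich wall protein gene and of a root hair specific gene with a match are shown 5′ to 3′ as the TAIR10.1 assembly gives them, with the element in capitals.
EXPA7: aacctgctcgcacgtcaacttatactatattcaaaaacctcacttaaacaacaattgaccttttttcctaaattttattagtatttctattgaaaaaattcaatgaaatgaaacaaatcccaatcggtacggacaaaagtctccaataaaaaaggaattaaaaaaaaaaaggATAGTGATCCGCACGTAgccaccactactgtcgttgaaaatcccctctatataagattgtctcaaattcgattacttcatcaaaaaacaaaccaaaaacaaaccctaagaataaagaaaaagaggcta
PRP3: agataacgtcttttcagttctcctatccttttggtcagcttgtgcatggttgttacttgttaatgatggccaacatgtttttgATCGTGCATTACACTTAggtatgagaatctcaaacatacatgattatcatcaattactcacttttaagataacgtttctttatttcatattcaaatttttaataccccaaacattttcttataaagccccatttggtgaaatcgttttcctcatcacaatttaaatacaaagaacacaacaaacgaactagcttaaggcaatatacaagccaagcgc
RHS13: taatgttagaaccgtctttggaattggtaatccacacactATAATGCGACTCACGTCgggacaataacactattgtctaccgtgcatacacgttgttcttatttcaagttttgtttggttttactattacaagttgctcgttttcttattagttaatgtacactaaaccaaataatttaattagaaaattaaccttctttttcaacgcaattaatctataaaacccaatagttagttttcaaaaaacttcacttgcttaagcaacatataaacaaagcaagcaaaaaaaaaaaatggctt
These lie at chr1:4276255-4276554 (plus strand), chr3:23182472-23182771 (plus strand) and chr4:992990-993289 (minus strand).

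RHD6 itself did not pass the test (log2 −0.13), nor did the related LRL1 and LRL2. RSL2 was at 12.4, 14.0 and 19.8 CPM in NB and at 19.7, 23.9 and 31.4 CPM with L359, where only the extremes of the groups touched (log2 0.70 ± 0.15, adjusted p = 2.0e-04). RSL4, which sets how long a hair grows, went from 4.33, 6.44 and 9.16 CPM to 8.53, 9.29 and 11.4 CPM (log2 0.56 ± 0.14), and AT2G14760, a further bHLH gene of the family, rose by 0.99. RSL1, which acts with RHD6 at the start of a hair, was the member that fell, from 1.94, 2.76 and 3.78 CPM to 0.868, 1.48 and 2.41 CPM (log2 −0.82 ± 0.20, adjusted p = 0.0013, and 0.054 without the 3 libraries that stand apart).

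Wall genes of hairs rose as well. RHS19, a root hair peroxidase, was at 30.1, 44.4 and 65.1 CPM in NB and at 75.7, 89.2 and 113 CPM with L359, so that it was 2.08-fold higher with no overlap between groups (log2 1.06 ± 0.19, adjusted p = 7.2e-06). RHS13 went from 25.4, 39.7 and 52.7 CPM to 55.9, 76.1 and 92.8 CPM (log2 0.93 ± 0.18). The wall protein genes PRP3 (log2 1.00 ± 0.20) and PRP1 (1.26 ± 0.30) were higher too. For LRX1, a leucine-rich repeat extensin (log2 0.88 ± 0.22), the groups overlapped, as L359 replicate 4 was at 37.5 CPM. XTH26, which remodels xyloglucan, had the highest fold change of the list, from 0.264, 0.820 and 2.43 CPM to 2.25, 2.87 and 5.75 CPM (log2 1.71 ± 0.47). EXPA7, an expansin of hairs, rose by 0.55 ± 0.14 from 29.8 to 45.9 CPM to 47.4 to 63.8 CPM. In 8 of the 24 genes the groups did not overlap, 15 were higher and none lower without the 3 libraries that stand apart, and 12 were higher and 1 lower when the 12 Col-0 libraries were fitted alone. Genes that pattern the epidermis (GL2, MYB66 and CPC) did not pass the test. In pooled roots, more hair cells and more RNA per hair cell cannot be told apart, and this holds for every group of cell type genes that follows.

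Genes that respond to mitochondrial and oxidative stress fell. Of 15 such genes 12 were lower and none higher, with a median log2 fold change of −0.52, and in 8 the libraries of the groups did not overlap. In Arabidopsis many of them are switched on through a promoter motif bound by NAC factors that leave the endoplasmic reticulum when mitochondria fail. It reads CTTG, then 5 bases of any kind, then CAAG or CACG, and both strands were searched. The motif was added to the search after the values of the list were known, and it was defined on genes such as AOX1A and AT2G21640. It occurs in 4 of the 12 promoters (33.3%: AOX1A, AT2G21640, UGT74E2 and CYP81D8), against 1.42% of all, and the W box (TTGACC or TTGACT), bound by WRKY factors, in 9 of the 12 (75.0%), against 32.4% of all. The W box also lay in 6 of 8 promoters (75%) of the pattern-triggered immunity genes below that were called higher, and in 2 of 2 called lower. The promoters of 3 genes that carry the CTTG motif are shown 5′ to 3′ with that motif in capitals.
AOX1A: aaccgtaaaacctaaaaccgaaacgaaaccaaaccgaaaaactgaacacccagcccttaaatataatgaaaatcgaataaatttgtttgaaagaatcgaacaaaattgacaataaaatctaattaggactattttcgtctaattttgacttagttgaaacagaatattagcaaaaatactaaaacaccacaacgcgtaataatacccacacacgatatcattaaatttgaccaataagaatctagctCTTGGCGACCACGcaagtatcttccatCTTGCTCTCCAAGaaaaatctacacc
AT2G21640: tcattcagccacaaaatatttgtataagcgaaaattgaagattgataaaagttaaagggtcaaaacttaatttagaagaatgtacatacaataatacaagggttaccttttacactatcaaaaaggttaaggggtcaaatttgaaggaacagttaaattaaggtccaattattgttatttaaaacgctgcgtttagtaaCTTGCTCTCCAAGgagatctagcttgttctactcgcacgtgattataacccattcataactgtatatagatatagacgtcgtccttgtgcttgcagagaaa
UGT74E2: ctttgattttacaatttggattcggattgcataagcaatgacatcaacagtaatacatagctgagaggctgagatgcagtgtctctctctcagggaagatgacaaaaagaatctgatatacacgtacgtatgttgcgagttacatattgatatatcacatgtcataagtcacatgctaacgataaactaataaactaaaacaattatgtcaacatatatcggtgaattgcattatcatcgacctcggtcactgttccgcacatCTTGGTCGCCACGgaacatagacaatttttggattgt
They lie at chr3:7906271-7906570 (plus strand), chr2:9254128-9254427 (plus strand) and chr1:1704789-1705088 (minus strand) of TAIR10.1.

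AOX1A, the alternative oxidase that lets electrons bypass the later respiratory complexes, was at 125, 136 and 174 CPM in NB and at 82.7, 90.2 and 101 CPM with L359. No L359 library reached the lowest NB library (log2 −0.65 ± 0.08, adjusted p = 5.3e-11). UGT74E2, which joins glucose to the auxin indole-3-butyric acid, was at 51.7, 73.5 and 161 CPM and at 22.7, 33.7 and 37.0 CPM, NB replicate 1 being far above the other 5 of its group (log2 −1.39 ± 0.19). AER, which reduces reactive alkenals, fell 2.54-fold, from 72.2, 87.7 and 118 CPM to 33.1, 36.5 and 41.5 CPM (log2 −1.35 ± 0.15). AT2G21640 went from 2.75, 4.18 and 14.4 CPM to 0.821, 1.72 and 2.24 CPM (log2 −1.88 ± 0.27). The glutathione transferase gene GSTU25 (−0.81 ± 0.15) and CYP81D8 (−0.75 ± 0.15) also had groups that did not overlap. AT5G16980, AT5G16990 and AT5G17000 are close relatives of AER, so the authors' counting could have split reads between them. AOX1B, AOX1D (log2 0.29) and ABCG40 did not pass the test. Without the 3 libraries that stand apart 11 were lower and none higher, as with limma voom.

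Genes of flavonoid synthesis fell. Flavonoids are phenolic compounds that act in roots as antioxidants and as brakes on auxin transport. Of 17 listed genes 14 were tested and 10 were lower and none higher, the median log2 fold change being −0.50, and all 14 values were negative. The G box (CACGTG, searched as written since it reads the same on both strands), bound by bZIP and bHLH factors, occurs in 5 of the 10 promoters (50.0%: TT4, TT5, CHIL, F3H and MYB12), against 7.68% of all. This share describes the list and is no test of its response. The promoters of chalcone synthase (TT4) and flavanone 3-hydroxylase (F3H) are shown 5′ to 3′ with the G box in capitals.
TT4: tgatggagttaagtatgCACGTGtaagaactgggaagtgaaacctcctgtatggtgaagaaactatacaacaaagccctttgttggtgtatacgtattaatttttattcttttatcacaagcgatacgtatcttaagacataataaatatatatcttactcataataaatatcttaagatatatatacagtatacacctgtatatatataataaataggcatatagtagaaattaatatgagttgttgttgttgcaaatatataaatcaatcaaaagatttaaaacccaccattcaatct
F3H: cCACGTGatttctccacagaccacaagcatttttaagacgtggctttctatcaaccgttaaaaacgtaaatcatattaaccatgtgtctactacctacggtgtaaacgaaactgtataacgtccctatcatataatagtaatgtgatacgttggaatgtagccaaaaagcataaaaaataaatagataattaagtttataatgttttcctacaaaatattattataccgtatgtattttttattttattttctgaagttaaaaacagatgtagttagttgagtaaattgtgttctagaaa
They lie on the plus strand at chr5:4488226-4488525 and chr3:19024942-19025241 of TAIR10.1.

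TT4, which makes the first compound of the pathway, was at 960, 1367 and 1519 CPM in NB and at 859, 1034 and 1198 CPM with L359 (log2 −0.33 ± 0.08, adjusted p = 0.0024). TT5, the chalcone isomerase, went from 77.3, 114 and 138 CPM to 49.8, 61.4 and 80.9 CPM, and F3H from 182, 244 and 295 CPM to 121, 162 and 217 CPM. In these genes the groups overlapped in a few libraries while the medians were clearly apart (log2 −0.77 ± 0.12 and −0.50 ± 0.12). The glycosyltransferase UGT78D1 (−0.73), the flavonol synthase FLS1 (−0.50) and MYB12, the activator of flavonol genes in roots (−0.46), fell too. Without the 3 libraries that stand apart the count was again 10 lower and none higher, but 2 were lower when the 12 Col-0 libraries were fitted alone.

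**Figure D3:**
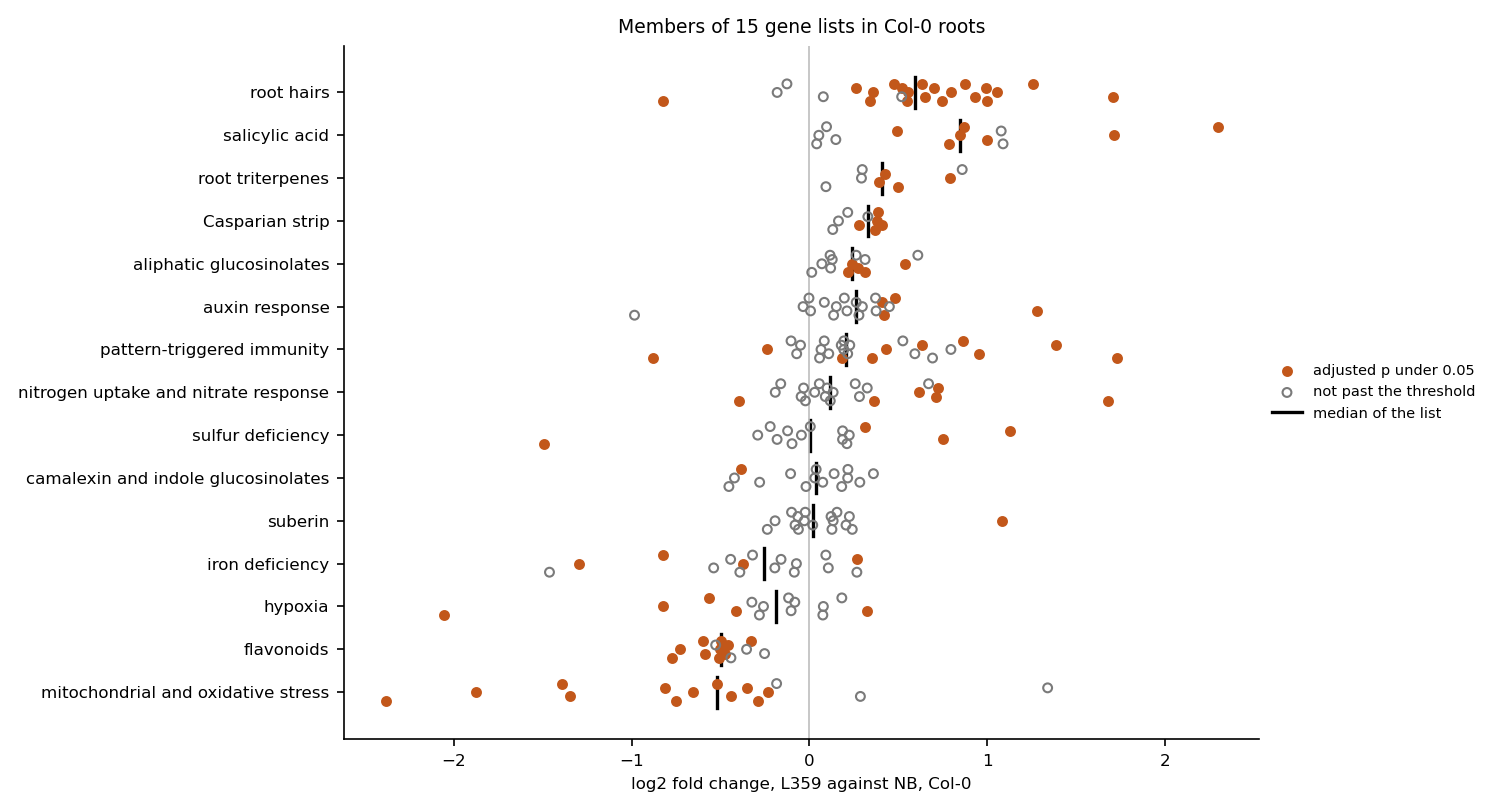
Each point is the log2 fold change of 1 gene, L359 against NB in Col-0, for the tested members of 15 gene lists. Filled points passed an adjusted p under 0.05, open points did not, and the bar is the median of the list. Medians run from 0.85 for salicylic acid and 0.60 for root hairs to −0.50 for flavonoids and −0.52 for mitochondrial and oxidative stress.

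Of the salicylic acid list 7 of 13 tested genes were higher and none lower, with a median log2 fold change of 0.85. PBS3, which conjugates isochorismate on the way to salicylic acid, was at 0.169, 2.57 and 6.94 CPM in NB and at 3.35, 16.3 and 20.7 CPM with L359. All but 1 of the L359 libraries were above all of NB (log2 2.30 ± 0.44, adjusted p = 3.1e-05). CBP60G, a calmodulin-binding activator of the pathway, went from 12.6, 25.0 and 42.1 CPM to 24.3, 86.5 and 106 CPM (log2 1.71 ± 0.32), with L359 replicate 5 at the low end. EDS16, the isochorismate synthase, was at 4.16 to 6.89 CPM and at 8.48 to 12.6 CPM, without overlap (log2 0.79 ± 0.14). SAG101, a partner of EDS1 in immune signalling, was also raised without overlap (log2 0.49 ± 0.10). SARD1 (log2 1.00), ALD1 (0.87) and WRKY70 (0.85) were called, but SARD1 and WRKY70 were highest in L359 replicate 4, at 3.37 and 26.2 CPM. Without the 3 libraries that stand apart, PBS3, CBP60G, EDS16 and SAG101 remained called and these 3 did not.

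Of 26 genes of pattern-triggered immunity 8 were higher and 2 lower (median log2 0.21), but only 1 was higher and 1 lower without the 3 libraries that stand apart. FLS2, the receptor for flagellin, was the gene that stayed higher. It was at 0.112, 0.370 and 0.681 CPM in NB and at 0.805, 1.09 and 1.66 CPM with L359, all low levels but without overlap (log2 1.73 ± 0.42, adjusted p = 0.0015, and 0.014 without those libraries). FRK1, a kinase induced by flagellin, had a median of 1.33 CPM with L359 against 0.719 CPM in NB, with L359 replicate 4 at 6.02 CPM (adjusted p = 7.3e-04, and 0.11 without that library). WRKY53 rose by 0.96, from 2.59 to 3.6 CPM to 4.36 to 9.73 CPM. The peptide gene AT4G37290 (−0.88) and the oxidase RBOHD, which makes the oxidative burst (−0.24), were the members that fell, but RBOHD was not called without NB replicate 1 alone and AT4G37290 was not called without the 3 libraries. The photosynthesis markers were high with these genes in L359 replicate 4 (1 of 20 was called, GLK2, log2 0.39), and their part in the result was not tested. Of 11 defence markers used by the study, a list that can share genes with that of immunity, 2 were higher and 2 lower in Col-0. These counts became 0 and 1 without the 3 libraries and 0 and 0 with limma voom. Camalexin and indole glucosinolate genes held 1 lower and none higher among 15. Of 19 jasmonate genes 2 were higher, a share near that of all genes, and 0 were without L359 replicate 4.

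Of 19 auxin-responsive genes tested 4 were higher and none lower (median log2 0.26), and 3 were higher without the 3 libraries that stand apart. Of 12 auxin reporters, taken from a real-time PCR panel, 5 were higher and none lower, and 3 were higher without those libraries. The 2 lists can share genes, so their counts should not be read as independent. BRU6, a GH3 enzyme that joins auxin to amino acids, was at 18.5, 28.6 and 66.9 CPM in NB and at 69.3, 73.5 and 101 CPM with L359. Its groups did not overlap, by a small margin (log2 1.28 ± 0.20, adjusted p = 2.5e-07). IAA2, an auxin-induced repressor, went from 31.1, 35.4 and 36.8 CPM to 39.4, 44.8 and 59.6 CPM (log2 0.42 ± 0.08). SHY2 (0.41), WES1 (0.48), the pinoid-binding PBP1 (1.35) and the calcium-binding AT4G27280 (0.68) rose as well. Of 20 genes of lateral root development 3 were higher and none lower, beside 8.45% and 6.64% of all genes. Without the 3 libraries 2 were higher, beside 4.91% of all. The 3 were GATA23, an early mark of founder cells (log2 1.19), LBD29 (1.06) and LBD16 (0.40), the factors that start the first divisions. LBD29 went from 1.8, 2.45 and 5.35 CPM to 4.02, 5.52 and 9.07 CPM, and the groups overlapped. With limma voom 0 of the 20 were called. Among 16 core cell cycle genes none was higher and 1 was lower, a call lost without the 3 libraries. WES1, AT4G27280 and GATA23 were not called without the 3 libraries that stand apart (adjusted p = 0.30, 0.19 and 0.088), nor LBD16 without NB replicate 1.

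Among genes of ethylene signalling 4 of 13 were higher. EBF2, the F-box gene that ethylene itself induces and that limits EIN3, was at 76.9, 91.3 and 101 CPM in NB and at 105, 144 and 163 CPM with L359 (log2 0.63 ± 0.09, adjusted p = 4.9e-08). The receptor gene ETR2 went from 3.50 to 5.24 CPM to 5.89 to 7.34 CPM, also without overlap (log2 0.58 ± 0.17). ACS5, which makes the ethylene precursor ACC, rose from 2.02, 2.95 and 3.92 CPM to 4.56, 5.80 and 10.2 CPM (log2 1.14 ± 0.23), 1 of 3 genes higher among 12 of ethylene synthesis. The core of the pathway (ETR1, CTR1, EIN2, EIN3 and EIL1) had log2 fold changes of 0.06 to 0.13 and did not pass the test. Of the 7 genes of signalling and synthesis called, EBF2, ERS1 and ACS5 remained so without the 3 libraries that stand apart. ETR2 (adjusted p = 0.068), EIL2, AT1G12010 and ETO1 did not. With limma voom 1 of the 13 signalling genes and 2 of the 12 synthesis genes were higher. When the 12 Col-0 libraries were fitted alone these counts were 2 and 2. Of 9 tested ethylene response factors 1 was higher and 0 were lower.

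Some transporters for nitrate and sulfate were higher and the sulfate transporter gene SULTR1;3, among the 15 lowest, fell by 1.37. NRT2:1, a high-affinity nitrate carrier, was at 4.62, 8.38 and 13.5 CPM in NB and at 23.3, 27.0 and 31.7 CPM with L359, 3.2-fold higher (log2 1.68 ± 0.32, adjusted p = 3.6e-05). WR3, the partner protein that NRT2:1 needs, went from 84.9, 102 and 123 CPM to 152, 168 and 184 CPM (log2 0.72 ± 0.12). The groups did not overlap in either gene. NRT1.1, the dual-affinity carrier and nitrate sensor, went from 611, 744 and 820 CPM to 794, 1120 and 1375 CPM (log2 0.62 ± 0.14). Of 21 genes of this list 5 were higher and 1 lower, and the same counts held without the 3 libraries that stand apart. SULTR1;2, the main root sulfate carrier, was at 639, 820 and 934 CPM and at 1052, 1391 and 1511 CPM, without overlap (log2 0.75 ± 0.11, adjusted p = 1.4e-08), and SULTR1;1 rose by 1.13 ± 0.22. Of 15 sulfur deficiency genes 3 were higher and 1 was lower. ATSDI1 (log2 0.19) and LSU1 (−0.04) did not pass the test, and BGLU28, a glucosidase gene, fell by 1.49 but was not called without NB replicate 1.

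Genes of the endodermal barrier, of specialised metabolism and of iron uptake changed in part. Of 9 Casparian strip genes, which build the lignin barrier of the endodermis, 5 were higher and none lower (median log2 0.33). The peroxidase PER64 went from 57.1, 89.4 and 105 CPM to 104, 113 and 122 CPM (log2 0.41), and CASP1, CASP2, ESB1 and their activator MYB36 rose by 0.28 to 0.39. For CASP1 the lowest L359 library (167 CPM) was above the highest of NB (159 CPM). Of 13 tested genes for aliphatic glucosinolates, the sulfur-rich defence compounds made from methionine, 5 were higher (median log2 0.24), led by the chain elongation enzyme MAM1 at 59.9, 66.4 and 83.5 CPM in NB and 84.4, 102 and 108 CPM with L359 (log2 0.54 ± 0.11). Of 8 genes of root triterpene clusters 4 were higher, among them CYP705A12 of the marneral cluster (log2 0.79 ± 0.19) and PEN1 (0.39 ± 0.10). Among 16 iron deficiency genes 3 were lower and 1 was higher, the proton pump gene HA2 (log2 0.27, not called without the 3 libraries). The lower ones were PYE (−0.37), a regulator of iron balance, and bHLH38 and bHLH39, which activate iron uptake. Of these bHLH38 went from 10.9, 16.9 and 51.2 CPM to 3.87, 8.30 and 15.3 CPM (log2 −1.29 ± 0.29) and bHLH39 from 34.1, 47.6 and 79.1 CPM to 17.2, 28.7 and 41.6 CPM (log2 −0.82 ± 0.16), while FRO2, the ferric reductase they control, was at 0.11 and did not pass the test. Some Casparian strip, triterpene and glucosinolate calls were lost without the 3 libraries that stand apart, which left 3, 3 and 2 genes higher, and CASP1, CASP2, ESB1 and PER64 were not called without NB replicate 1. That library was the highest of NB for bHLH38 (51.2 CPM), which remained called without it.

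The same strain was compared in the mutants of ARF7 and LBD16 to ask which responses were shared. With L359, 1662 genes were higher (7.68%) and 1205 lower (5.57%) in *nph4-1*, and 1955 were higher (9.04%) and 1562 lower (7.22%) in *lbd16-1*. These contrasts share no library with that of Col-0. Of the 1829 genes higher in Col-0, 692 were higher in *nph4-1* (37.8% of the Col-0 list and 41.6% of the mutant list) and 761 in *lbd16-1* (41.6% and 38.9%). Of the 1436 lower in Col-0, 350 were lower in *nph4-1* (24.4% and 29.0%) and 433 in *lbd16-1* (30.2% and 27.7%). Opposite calls were few, 29 and 40 among those higher in Col-0 and 14 and 15 among those lower. In all 3 genotypes 603 genes were higher and 290 lower.

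AT3G03670 and AT5G37450 were raised in every genotype. AT3G03670 rose by 4.24 in *nph4-1* and by 5.18 in *lbd16-1* on the log2 scale, and AT5G37450 by 2.2 and 2.42. CP1 fell by 1.6 and 1.57 there, close to its fall in Col-0. Mitochondrial and oxidative stress genes fell in each genotype, with 12 of 15 lower in *nph4-1* and 12 in *lbd16-1* and medians of −0.46 and −0.45. Within that list AT5G16980 and AER fell by less in the mutants (−1.19 and −1.32 for AT5G16980, −0.58 and −0.56 for AER), and the difference between genotypes passed the test for both genes in both mutants (adjusted p = 0.013 to 0.037, but 0.052 for AT5G16980 in *lbd16-1* without the Col-0 libraries that stand apart). AOX1D, not called in Col-0, rose by 1.2 in *nph4-1* and by 1.66 in *lbd16-1*, although the difference from Col-0 was not called. Flavonoid genes fell in 6 of 14 cases in *nph4-1*, where MYB12 rose by 0.39, and in 11 in *lbd16-1*. PBS3 rose by 1.55 and 3.23. Of the 11 defence markers 8 were higher and none lower in each mutant (medians 0.67 and 0.68). Of 26 genes of pattern-triggered immunity 12 were higher and 1 lower in *nph4-1*, and 13 and 0 in *lbd16-1*. Camalexin and indole glucosinolate genes were higher in 5 and 8 of 15 cases, with 1 lower in each. The response was called higher than in Col-0 for 2 and 1 of the markers and for 3 and 1 of the immunity genes. Root hair genes were higher in 6 of 24 cases in *nph4-1* and 8 in *lbd16-1* (medians 0.25 and 0.35), and the response of PRP1, which did not pass the test there, was lower than in Col-0 in both (difference −1.79 ± 0.42 and −1.87 ± 0.42).

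The response itself was tested for a difference between genotypes. It was higher than in Col-0 for 274 genes in *nph4-1* (1.27%) and 383 in *lbd16-1* (1.77%), and lower for 329 (1.52%) and 457 (2.11%). Sulfur genes were among the lower ones. Of 15 genes 13 fell with L359 in *nph4-1* and 12 in *lbd16-1*, and for 8 and 7 the response was lower than in Col-0. ATSDI1, a repressor of glucosinolate synthesis that sulfur starvation induces, was at 15.6 to 85.5 CPM in Col-0 NB and 36.9 to 53.1 CPM in Col-0 with L359. In *nph4-1* it went from 48.1 to 98.2 CPM to 11.1 to 22.0 CPM, and in *lbd16-1* from 35.7 to 97.4 CPM to 7.76 to 18.7 CPM. So the mutant groups did not overlap, whereas the Col-0 groups did (difference of responses −2.25 ± 0.39 and −2.34 ± 0.39, adjusted p = 4.7e-05 and 1.8e-05). Aliphatic glucosinolate genes likewise had a lower response for 12 of 13 in *nph4-1* and for 4 in *lbd16-1*. MAM1 fell by 0.32 in *nph4-1* where it rose by 0.54 in Col-0.

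Root triterpene genes had a lower response for 6 of 8 in each mutant. MRN1, the marneral synthase, was at 6.07 to 28.1 CPM in Col-0 NB and 20.5 to 57.0 CPM with L359, which did not pass the test (log2 0.86). It went from 29.6 to 69.5 CPM to 6.82 to 17.1 CPM in *nph4-1* and from 21.4 to 83.7 CPM to 3.99 to 26.7 CPM in *lbd16-1*. The difference of its responses was −2.88 ± 0.59 and −3.00 ± 0.59. The NB libraries of *nph4-1* all lay above those of Col-0 and those of *lbd16-1* mostly did, a difference that was not tested. Suberin genes, which seal older endodermis, had a lower response for 7 of 17 in *nph4-1* and 9 in *lbd16-1* (median fold changes −0.36 and −0.38, against 0.02 in Col-0). NRT1.1 rose by 0.62 in Col-0 and fell by 0.46 and 0.48 in the mutants.

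Iron genes went the other way, 4 of 16 having a higher response than in Col-0 in each mutant and none a lower one. bHLH38 was at 3.91 to 8.51 CPM in *nph4-1* NB and rose to 11.6 to 18.3 CPM, and in *lbd16-1* it went from 3.4 to 5.21 CPM to 5.97 to 23.7 CPM. With L359 the levels of the 3 genotypes overlapped, and the NB libraries of Col-0 were all above those of the mutants (differences of responses 2.47 ± 0.42 and 2.89 ± 0.43). BHLH100 rose by 2.90 and 2.79 in the mutants and was not called in Col-0 (−0.44). FRO2 rose by 1.11 and 1.35, but its difference from Col-0 was not called (adjusted p = 0.22 and 0.073). CYP710A4 and AT5G04120, among the 15 highest in Col-0, did not pass the test in either mutant and had a lower response in both (−2.54 and −2.84 for CYP710A4). Without the 3 Col-0 libraries that stand apart, 523 and 654 genes differed in response.

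**Figure D4:**
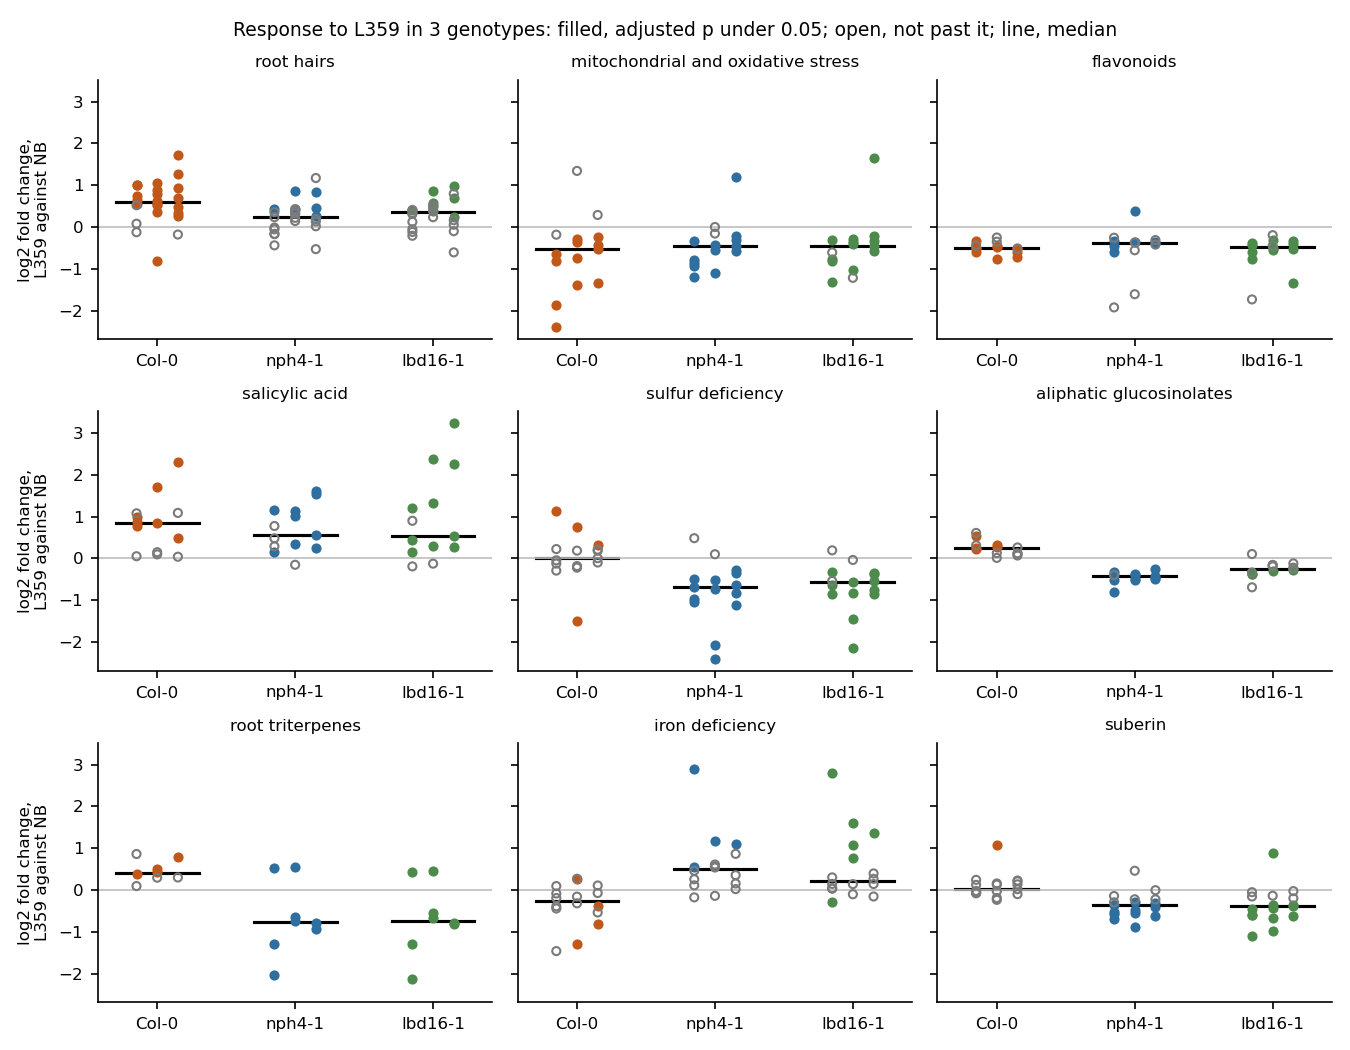
Each point is the log2 fold change of 1 gene, L359 against NB of the same genotype, in Col-0, *nph4-1* and *lbd16-1*, for 9 gene lists. Filled points passed an adjusted p under 0.05 and the line is the median. Mitochondrial and oxidative stress medians were −0.52, −0.46 and −0.45, while sulfur deficiency medians were 0.01, −0.68 and −0.55.

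Set against the other strains in Col-0, which leaves NB out, L359 was higher than the mean of the 15 other strains for 883 genes (4.08%) and lower for 402 (1.86%). Its mean lay outside the range of their 15 means for 2128 genes (9.84%), a description only, since for each gene some strain must be the highest and some strain the lowest. The 8 genes highest against the others by size, among them LURP1, ACD6 and ARGAH2, were high in L359 replicate 4 alone and summed to 171 CPM there, against at most 1.21 CPM in the other L359 libraries. None of the 8 was called without that library, and the total of called genes then fell to 607. The potassium carrier gene HAK5 did not rest on it. HAK5 was at 29.8, 45.7 and 56.0 CPM with L359 and at 15.5, 19.5 and 24.8 CPM in NB, and the means of the 15 other strains ran from 6.05 to 41.9 CPM, so L359 held the highest mean of all (log2 1.63 against the others, adjusted p = 3.0e-09). Against NB its rise of 1.17 ± 0.35 was not called without the libraries that stand apart (adjusted p = 0.10). AT5G26200, a mitochondrial carrier, was likewise above the range of the others, at a mean of 4.29 CPM against 1.68 to 3.72 CPM. AT2G22590, a glycosyltransferase, was below it, at 8.74 CPM against 10.8 to 22.0 CPM (log2 −0.68, adjusted p = 2.9e-06).

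Aliphatic glucosinolate genes were higher with L359 than with the other strains in 11 of 13 cases and sulfur genes in 9 of 15. ATSDI1 was higher by 0.80 and MAM1 by 0.38. Auxin-responsive genes were lower in 7 of 19 cases, BRU6 by 0.82, as the other strains held 35.1 to 293 CPM of it. Root hair genes were lower in 5 of 24. XTH26 had a mean of 3.22 CPM with L359, and the other strains ran from 1.23 to 70.0 CPM. No mitochondrial or oxidative stress gene was called against the mean of the others, AOX1A being at 69.7 to 115 CPM with them. The study itself listed strongly induced genes, chosen on these same libraries. Of 75 tested, 50 were higher with L359 than in NB in Col-0 (median log2 1.34). That count was 36 without the 3 libraries that stand apart, 26 with limma voom and 33 with the 2 groups fitted alone. Against the other strains 1 was higher and 8 were lower. In *nph4-1* 5 and in *lbd16-1* 9 of the 75 were higher with L359 (medians 0.19 and 0.25). The response was lower than in Col-0 for 11 in each mutant and higher for 0.

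**Figure D5:**
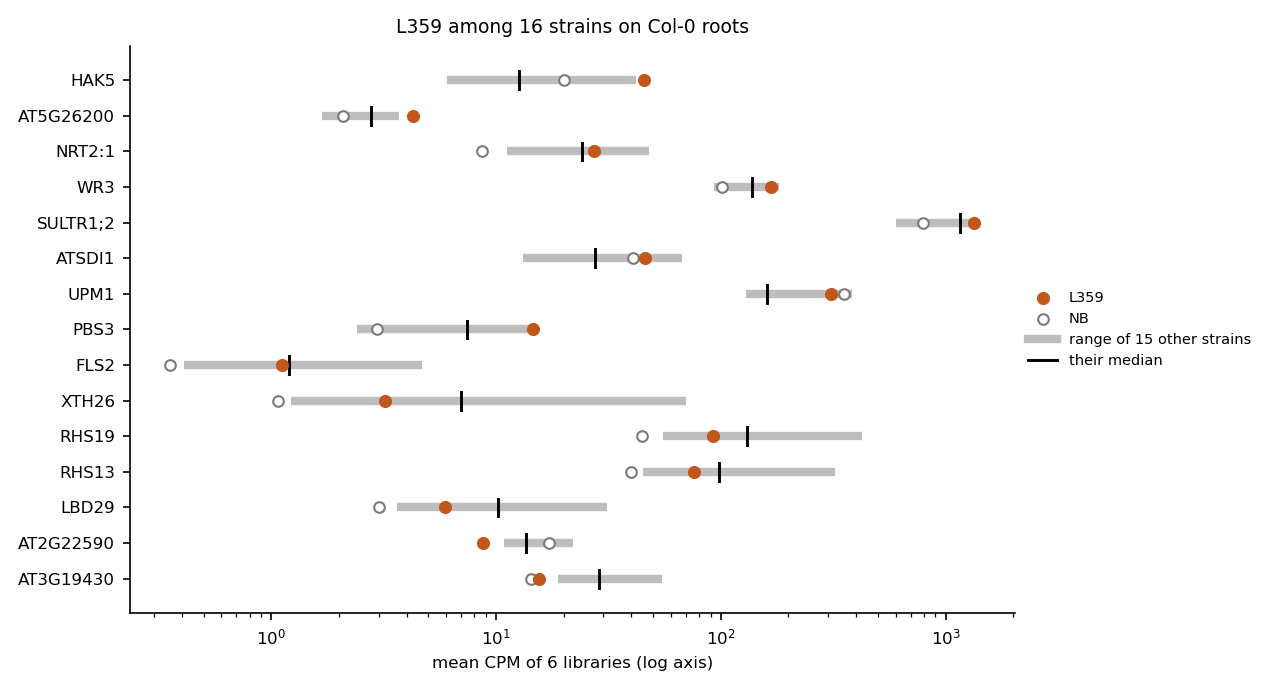
For 15 genes the orange point is the mean CPM of 6 libraries with L359, the open point that of NB, the grey bar the range of the means of 15 other strains and the tick their median, on a log axis. HAK5 and AT5G26200 lie above the bar and AT2G22590 below it, while XTH26, RHS19 and RHS13 lie between NB and the median of the strains.

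Of the other Bacteroidota, L180 differed from L359 at 739 genes that were higher (3.42%) and 381 that were lower with L359 (1.76%), and RMF8 at 715 (3.3%) and 622 (2.87%). HAK5 was higher with L359 than with either, at means of 45.4, 9.01 and 12.8 CPM for L359, L180 and RMF8 (log2 2.32 and 1.82). AT4G10860 (log2 1.78 and 2.34), the small heat shock gene HSP17.6A (1.6 and 2.18) and AT2G21210, of the SAUR family (1.90 and 1.57), were higher in both comparisons. The kinase gene AT3G46340 was lower in both (−2.56 and −2.54). Of 24 root hair genes 15 were lower with L359 than with RMF8 and 0 than with L180. XTH26 was at a mean of 15.8 CPM with RMF8 and 5.97 CPM with L180. Whether RMF8 and L180 differ there was not tested. Without L359 replicate 4 and the NB libraries that stand apart, 725 and 874 genes differed.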

How the data were processed

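Poly(A) RNA of pooled roots was sequenced (paired reads of 100 bases). The authors trimmed reads with fastp 0.20.1, estimated transcript counts with Salmon 1.6.0 against the Ensembl Plants gene set and summed them to genes with tximport, and the deposited table holds these estimated counts as whole numbers for 32311 genes. Symbols came from the TAIR10.1 annotation (32064 IDs matched) and promoters, 250 bases before to 50 after the start, from the same assembly (RefSeq).

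Groups followed the genotype and treatment labels. The 222 libraries, of 10255732 to 25605850 counts in the Col-0 libraries with L359 or NB, were fitted with edgeR 4.0.16 (R 4.3.3): filterByExpr, TMM scaling, the quasi-likelihood test with 1 coefficient per group, and Benjamini-Hochberg adjustment over 21635 genes. The SE is the log2 fold change divided by the square root of its F statistic. Alternatives used DESeq2 1.42.0, limma voom (limma 3.58.1), other filters, scaling and thresholds, the library number range and each library left out. The fits were also run on simulated counts with 1 dispersion per gene for all groups. That simulation lacks the wider spread of Col-0 NB, so it cannot show how that spread affects the calls.

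Genes and gene lists were chosen with earlier results of these data known. Named were, among called genes of at least 1 CPM without overlap, the 15 highest and 15 lowest; in each of 37 lists up to 4 called genes of largest change and the first gene; the 8 highest and 8 lowest outside the range of the other strains; the 5 highest and lowest against L180 and RMF8; and the 3 highest and lowest interactions, of which those that serve the comparisons are printed. Other list members named, such as RSL1, RSL2, RSL4, BHLH100, FRO2, AOX1D, LBD16 and LSU1, and the root hair and mitochondrial motifs, were chosen after their values were seen.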

Additional observations from a re-analysis of the deposited data

Results flagged for a closer look

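Within the groups of 6, single libraries stood far from the rest in 34 of 294 tests over the named genes. Many of these genes were chosen on the same libraries, so this count cannot be set against a chance rate. NB replicate 1 gave 12 of these, as the highest library of NB, with 537.5 CPM of FRO2, 161 CPM of UGT74E2, 6.85 CPM of BHLH100, 5.95 CPM of ERF71, 4.16 CPM of AT3G54530, 51.2 CPM of bHLH38, 1.35 CPM of AT4G10860, 2.36 CPM of AT4G12735, 63.0 CPM of AT4G33070, 24.8 CPM of CYP81D8, 7.75 CPM of HSP17.6A and 228.5 CPM of RBOHD. NB replicate 2 was highest for AT1G33840 (1.46 CPM), AT1G33890 (0.778 CPM) and BRU6 (66.9 CPM). NB replicate 5 was lowest for ETR1 (40.8 CPM), LRL1 (56.9 CPM) and EDS1 (35.5 CPM), and NB replicate 4 held 48438 counts of AT2G01020.

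L359 replicate 4 gave 10, beside its photosynthesis marker sum of 2608 CPM. It was highest for RBCS1A (259.7 CPM), LHCB3 (134.5 CPM), GLK2 (16.9 CPM), SARD1 (3.37 CPM), LURP1 (7.48 CPM), FRK1 (6.02 CPM), ARGAH2 (10.3 CPM), ACD6 (11.8 CPM) and BRU6 (101 CPM), and lowest for UGT74E2 (22.7 CPM). L359 replicate 3 was highest for ABCB5 (5.88 CPM), XTH26 (5.75 CPM) and ACS5 (10.2 CPM). L359 replicate 1 was lowest for ERF71 (0.232 CPM), replicate 2 for PDC2 (27.1 CPM) and replicate 5 for CBP60G (24.3 CPM).

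The response to L359 differed from that of Col-0 in a mutant for 50 gene and mutant pairs. In *nph4-1* it was lower on the log2 scale for MRN1 (−2.88), AT5G04120 (−2.58), CYP710A4 (−2.54), AT4G35690 (−2.42), ABCB5 (−2.29), ATSDI1 (−2.25), HAK5 (−2.04), PRP1 (−1.79), CYP705A12 (−1.57), AT2G14760 (−1.43), NRT1.1 (−1.08), LSU1 (−1.0), MAM1 (−0.86) and SULTR1;2 (−0.65). It was higher for BHLH100 (3.34), bHLH38 (2.47), ATMG00640 (1.49), AT4G37290 (1.32), AT5G16980 (1.2), bHLH39 (1.18), RSL1 (1.15), MYB12 (0.84), AER (0.76), PRR9 (0.56), PYE (0.53) and PDC2 (0.52). In *lbd16-1* it was lower for MRN1 (−3.00), AT4G35690 (−2.87), AT5G04120 (−2.86), CYP710A4 (−2.84), ATSDI1 (−2.34), AT3G48510 (−2.13), HAK5 (−2.0), PRP1 (−1.87), ABCB5 (−1.73), CYP705A12 (−1.59), NRT1.1 (−1.10), AT5G26200 (−1.04) and SULTR1;2 (−0.79). It was higher for BHLH100 (3.23), bHLH38 (2.89), AT4G37290 (1.36), RSL1 (1.34), AT2G21640 (1.27), bHLH39 (1.2), ATMG00640 (1.16), AT5G16980 (1.06), AER (0.78), PYE (0.52) and PDC2 (0.47).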

How the results depend on the processing

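No paired analysis was possible because the labels give the libraries no replicate numbers (those used here follow accession order). Library numbers fall in 2 ranges. Replicates 1 to 3 of Col-0 had high numbers (112 to 114 for NB, 130 to 132 for L359). Replicates 4 to 6 had low numbers (1 to 3 for NB, 19 to 21 for L359). The labels do not say whether these ranges are the repeats of the experiment, and the main fit did not include them. With the range of the library numbers as a covariate, which is no pairing, 3504 genes were called in Col-0 and 3702 in *lbd16-1*, and every such count was within 1.5 times that of the reported fit. Against 3265 genes called for L359 in Col-0, 1185 were called when the compared libraries were fitted alone, 1431 with limma voom, 1657 with the low library numbers only, 1779 without the 3 libraries that stand apart, 1798 at an adjusted p under 0.01 and 474 with a log2 change of at least 1. The threshold of 0.01, the log2 change of 1 and the low numbers gave 1799, 461 and 1157 genes in *nph4-1* and 2210, 540 and 2194 in *lbd16-1*. Genes whose response in *nph4-1* differed from Col-0 numbered 603, and under the same settings 256, 147 and 94 (373 with voom). In *lbd16-1* they numbered 840, and 328, 185 and 415 (353 with voom and 413 with the libraries fitted alone). Against the other strains 1285 genes were called and 551, 120 and 763 under those settings, 753 with voom, 796 with the high library numbers only and 617 without the 3 libraries. Against L180 1120 became 436, 129 and 439, with 503 for the high numbers and 725 without the 3, and against RMF8 1337 became 623, 229 and 770, with 742 and 874. Calls shared with a mutant went from 1343 to 736, 192 and 588, to 734 with the libraries fitted alone, 827 with voom, 798 with the high numbers and 876 without the 3.

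With 1 library left out at a time the counts ran 2482 to 4116 for Col-0, 2463 to 2795 for *nph4-1*, 2896 to 3398 for *lbd16-1*, 448 to 789 and 470 to 1187 for the differences in response, 607 to 1426 against the other strains, 693 to 1195 against L180, 863 to 1473 against RMF8 and 1041 to 1477 for shared calls. The lowest counts against strains were those without L359 replicate 4, and the count against the other strains was also 734 without L359 replicate 3. That against L180 was 745 without L180 replicate 2, and the *lbd16-1* difference in response was 553 without its NB replicate 1 and 470 without its L359 replicate 6. ARGAH2 and ACD6 turned negative with voom (log2 −0.11 and −0.14), with the high library numbers only (−0.20 and −1.40), without L359 replicate 4 (−1.96 and −1.09) and without the 3 libraries (−0.97 and −1.31), and reached 4.56 without NB replicate 4 and 3.56 without NB replicate 2. Of 147 named genes 60 kept their direction and call in every setting run. The removal of the 3 libraries was chosen after seeing the data. Their library numbers (1, 2 and 19) are all low, and NB replicate 6 is then the only Col-0 NB library with a low number. A call lost in that fit may thus also reflect the changed balance of library numbers, which was not tested. Genes under 1 CPM, such as FLS2 in NB, rest on few counts, and the causes of these shifts were not tested.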

Other observations

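Other responses of these roots to L359 were small. Of 14 hypoxia genes 4 were lower and 1 higher in Col-0. PDC2, a pyruvate decarboxylase of fermentation, was at 35.9, 38.1 and 41.1 CPM in NB and at 27.1, 29.1 and 29.9 CPM with L359, without overlap (log2 −0.41 ± 0.10). It did not pass the test in either mutant, and its response differed from that of Col-0 in both (0.52 and 0.47). AT4G33070, another decarboxylase, fell by 0.82 ± 0.15 in Col-0 and also fell in *nph4-1* and *lbd16-1* (−0.72 and −0.78). ERF71, a factor of the oxygen sensing pathway, went from 0.485, 0.996 and 5.95 CPM to 0.232, 0.452 and 0.529 CPM, with NB replicate 1 as the high library, and was not called without it.

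Of 20 phosphate genes 2 were higher and 2 lower, near the shares of all genes (8.45% and 6.64%). PHT1;1, a main phosphate carrier of roots, rose by 0.42 ± 0.10 in Col-0, by 0.45 in *nph4-1* and by 0.36 in *lbd16-1*. Of 8 coumarin genes 1 was higher and 0 were lower in Col-0, while 4 were higher in *nph4-1* and 5 in *lbd16-1*. AT3G13610, the enzyme that opens the coumarin branch in roots, rose by 0.57 ± 0.15 in Col-0, from 161, 222 and 305 CPM to 230, 336 and 391 CPM. It rose by 0.91 and 1.2 in the mutants. MYB72, a regulator of coumarin secretion, was below 0.64 CPM in every Col-0 library. Of 16 clock genes 3 were lower, the morning genes LHY (−0.47), CCA1 (−0.38) and PRR9 (−0.37), and 2 were higher, RVE1 (0.39) and PCL1 (0.24). LHY and RVE1 were each lost when single libraries were left out.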
